A study of Homo sapiens with 6 samples.

Results

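EPB41L3 encodes 4.1B, also called DAL-1, a member of the band 4.1 proteins, and was examined here together with 7 related genes in PC-3 tumors. The members were taken as the table entries whose symbol is EPB41, EPB41L1, EPB41L2, EPB41L3, EPB41L5, CADM1, CADM4 or NF2, which gave 8 of 24000 entries, 1 for each symbol. EPB41L3 was chosen by its FPKM difference between the groups compared below, and the other 7 as its relatives or partners, so the differences between treatments are given for these 8 genes as a description, with no test.

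The PC-3 line comes from a human prostate carcinoma and grows without androgens. The cells had been grown as tumors in nude mice, an athymic strain that keeps its innate immune cells, and 3 tumors came from mice given vehicle and 3 from mice given WCE, an extract of the herb Wedelia chinensis. The labels of both groups give a treatment of 10 weeks and neither a dose nor the age of the mice. The study describes male mice with cells injected into the anterior prostate, gives more than 1 dose and a shorter treatment for PC-3 tumors, and which of these holds for the 6 tumors is not given in the labels. All tumors derive from 1 cell line, and RNA of the mouse host is part of such a sample. The unit is FPKM, a fragment count scaled to transcript length and to the mapped fragments of the library, so levels of different genes can be set side by side.

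Band 4.1 proteins carry a FERM domain, which binds the tails of membrane proteins, and several of them also hold the spectrin and actin network to the inner face of the membrane. EPB41 encodes the red cell form 4.1R, EPB41L1 the form 4.1N known from neurons, and EPB41L2 the widely expressed form 4.1G. CADM1 and CADM4 are immunoglobulin-like adhesion molecules whose tails bind band 4.1 proteins, and NF2 encodes merlin, a FERM-domain tumor suppressor upstream of the Hippo kinases. EPB41L3 and CADM1 are known as genes that are often silenced in carcinomas, with methylation of their promoters as a known route.

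The promoters are shown because the members differed in direction, and CpG sites are where methylation takes place. RefSeq gave a start site for 7 of the 8 genes, CADM1 being the exception, and for each gene the start was used whose distance to the far end of the gene lay closest to the length listed in the table. Even so, that distance differed from the listed length by 19716 bases for EPB41L1 and −3877 bases for EPB41. The bases just after the CADM4 start were not found in a reference transcript of that gene, unlike those of the other genes with a start. The 250 bases upstream of that start follow for EPB41L3, for EPB41L2, the relative with the next highest difference, and for CADM4, the member with the lowest, each 5′ to 3′ on the gene's own strand with CpG sites in capitals.
EPB41L3, GRCh38.p14 chr18:5543998-5544247, minus strand: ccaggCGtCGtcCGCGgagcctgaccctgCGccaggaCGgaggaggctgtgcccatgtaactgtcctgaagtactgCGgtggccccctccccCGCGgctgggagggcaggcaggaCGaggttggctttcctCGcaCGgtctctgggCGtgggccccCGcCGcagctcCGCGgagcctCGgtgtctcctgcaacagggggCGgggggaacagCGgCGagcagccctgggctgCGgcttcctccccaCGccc
EPB41L2, GRCh38.p14 chr6:131063246-131063495, minus strand: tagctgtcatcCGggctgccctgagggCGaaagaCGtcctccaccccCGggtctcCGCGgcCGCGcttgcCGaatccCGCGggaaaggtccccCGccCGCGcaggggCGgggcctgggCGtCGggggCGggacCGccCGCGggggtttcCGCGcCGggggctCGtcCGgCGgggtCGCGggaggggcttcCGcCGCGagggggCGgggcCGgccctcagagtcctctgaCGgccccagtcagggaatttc
CADM4, GRCh38.p14 chr19:43639851-43640100, minus strand: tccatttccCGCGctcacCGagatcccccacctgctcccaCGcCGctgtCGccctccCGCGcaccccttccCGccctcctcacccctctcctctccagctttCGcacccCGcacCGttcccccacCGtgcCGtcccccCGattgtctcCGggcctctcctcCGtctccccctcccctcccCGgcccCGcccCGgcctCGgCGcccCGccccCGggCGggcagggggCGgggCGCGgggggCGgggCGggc

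The EPB41L3 stretch held 23 CpG sites, against 35 for EPB41L2, 30 for CADM4 and a median of 11 over 35116 RefSeq promoters of the same length. Across the 7 genes the number of CpG sites ran from 16 in NF2 to 38 in EPB41L1. Of motifs searched on both strands, the GC box GGGCGG was present in 7 of 7 stretches and in 42.6% of all promoters. CCAAT was present in 3 of 7, namely EPB41, EPB41L5 and NF2, and in 32% of all promoters. The cyclic AMP response element TGACGTCA was present in EPB41 alone among the 7, and in 1.65% of all promoters. TATAAA, the AP-1 site TGACTCA, the E-box CACGTG and the ACGTG core that the E-box contains were in 0 of 7, against 10.7%, 4.2%, 6.34% and 18.5% of all promoters. Methylation and binding were not measured in these samples.

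A pair of libraries stood apart from the rest and touches each comparison. Vehicle replicate 3 and WCE replicate 1 differed by a median of 0.0276 on the log2(FPKM + 1) scale over abundant entries, whereas the other 14 pairs of tumors differed by 0.095 to 0.247. Each of the 15805 entries above 0 in WCE replicate 1 was also above 0 in vehicle replicate 3, and its relative depth, read from the steps of low values, was 25% of that of vehicle replicate 3, against 64.8% to 85.2% for the other 4 tumors. Within the 8 members the widest gap of this pair was 0.193 in log2(FPKM + 1), for EPB41L5. They may come from 1 sample, which these values do not settle. If so, each n of 3, SD, standard error and p below would count the same tumor under both treatments. Both libraries were kept under their labels, and differences between the 4 other tumors are given for the 8 members and for each other gene with an unadjusted p under 0.05. Markers of the PC-3 epithelium were abundant, with KRT19 at 407 to 652 FPKM. Of 6 prostate luminal markers, KLK3 and KLK2 were listed at 0 in each tumor.

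EPB41L3, listed on hg19 at chr18:5392388-5543986 with a single transcription start (RefSeq lists 4), was measured at 1.74, 1.36 and 3.80 FPKM under vehicle and 4.07, 17.7 and 9.52 FPKM under WCE. The highest levels were in WCE replicates 2 and 3, and the groups did not overlap, although the step between them was that between the nearly identical libraries, at 3.80 and 4.07 FPKM. The mean was 2.30 ± 1.31 FPKM (SD, n = 3) under vehicle and 10.4 ± 6.87 FPKM (SD, n = 3) under WCE, a ratio of 4.53. Its log2(FPKM + 1) difference of 1.67 (standard error 0.47) stood 19th from the top among 13287 entries with a mean of at least 0.5 FPKM. Between the 4 other tumors the difference was 2.46 (standard error 0.29) and the ratio of means 8.78. It was 1.22 with WCE replicate 2 omitted, which carried the highest value. In whole tumors, a change in RNA per cell and a change in the share of cells that express a gene cannot be told apart.

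**Figure D1:**
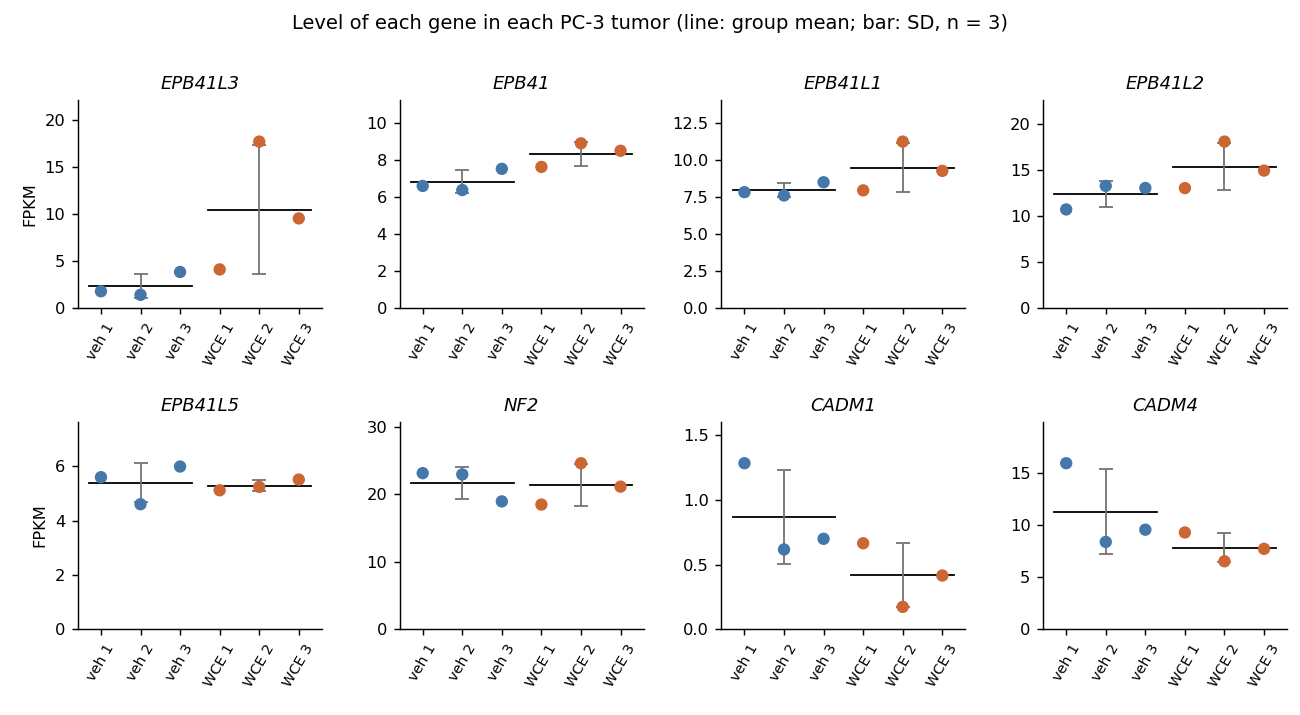
FPKM (y axis, from 0) of each of the 8 genes in each tumor (x axis), with vehicle in blue and WCE in orange, the group mean as a line and its SD (n = 3) as a bar. EPB41L3 ran from 1.36 to 17.7 FPKM with WCE replicates 2 and 3 on top, whereas NF2 and EPB41L5 lay at similar levels in both groups.

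The forms 4.1R, 4.1N and 4.1G had higher means under WCE, by far less than EPB41L3, which was chosen by its difference. EPB41, the founding member, at chr1:29213603-29450421, had 6.59, 6.37 and 7.51 FPKM under vehicle and 7.62, 8.90 and 8.49 FPKM under WCE. Its groups did not overlap, again with the nearly identical libraries on either side of the step, and its log2 difference was 0.26 (standard error 0.11). The locus of EPB41 is also listed for TMEM200B, at 2.15 to 3.07 FPKM. EPB41L2, at chr6:131160488-131384462, had 10.7, 13.2 and 12.99 FPKM under vehicle and 12.99, 18.0 and 14.9 FPKM under WCE, with a log2 difference of 0.29 (standard error 0.14). Its groups overlapped, as did those of EPB41L1, at chr20:34700348-34820721, which had 7.83, 7.61 and 8.50 FPKM under vehicle and 7.95, 11.3 and 9.28 FPKM under WCE. The log2 difference of EPB41L1 was 0.21 (standard error 0.13), and it was 0.096 without WCE replicate 2 and 0.32 without WCE replicate 1. For EPB41L2 the difference was 0.17 without WCE replicate 2. In EPB41, EPB41L1, EPB41L2 and EPB41L3 alike, the highest tumor was WCE replicate 2 and the next WCE replicate 3. Those libraries were also the closest of the 14 other pairs over abundant entries, at 0.095. How many of all entries share this order was not counted, here or for the genes below. Between the 4 other tumors the differences of EPB41, EPB41L1 and EPB41L2 were 0.37, 0.36 and 0.43.

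EPB41L5, which encodes a FERM-domain protein of cell polarity and adhesion, and NF2 differed between the groups by less than their standard error. EPB41L5, at chr2:120770604-120936697, had 5.60, 4.60 and 5.99 FPKM under vehicle and 5.12, 5.24 and 5.51 FPKM under WCE. All 3 WCE-treated tumors lay within the range of the vehicle-treated tumors, with a log2 difference of −0.019 (standard error 0.12). NF2, at chr22:29999545-30094589, had 23.1, 23.0 and 19.0 FPKM under vehicle and 18.5, 24.6 and 21.1 FPKM under WCE. Its log2 difference of −0.021 had a standard error of 0.13, and the sign of both genes turned when single tumors were omitted. Between the 4 other tumors the difference was 0.068 for EPB41L5 and −0.014 for NF2.

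The adhesion molecules CADM1 and CADM4 had lower means under WCE. CADM4, at chr19:44126522-44143991, had 15.9, 8.38 and 9.55 FPKM under vehicle and 9.28, 6.52 and 7.71 FPKM under WCE. Vehicle replicate 1 stood above the other tumors, the groups overlapped, and the log2 difference was −0.44 (standard error 0.23), or −0.18 without that tumor. CADM1, at chr11:115044345-115375241, was low throughout, at 1.28, 0.617 and 0.700 FPKM under vehicle and 0.665, 0.173 and 0.415 FPKM under WCE. Its lowest tumors were WCE replicates 2 and 3, those with the highest EPB41L3. The log2 difference of CADM1 was −0.39 (standard error 0.20), a size that the added 1 FPKM compresses, since it was −0.96 when 0.1 FPKM was added in its place. Omitting vehicle replicate 1 gave −0.24, and omitting WCE replicate 2 gave −0.27. Between the 4 other tumors the differences were −0.58 for CADM1 and −0.64 for CADM4.

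**Figure D2:**
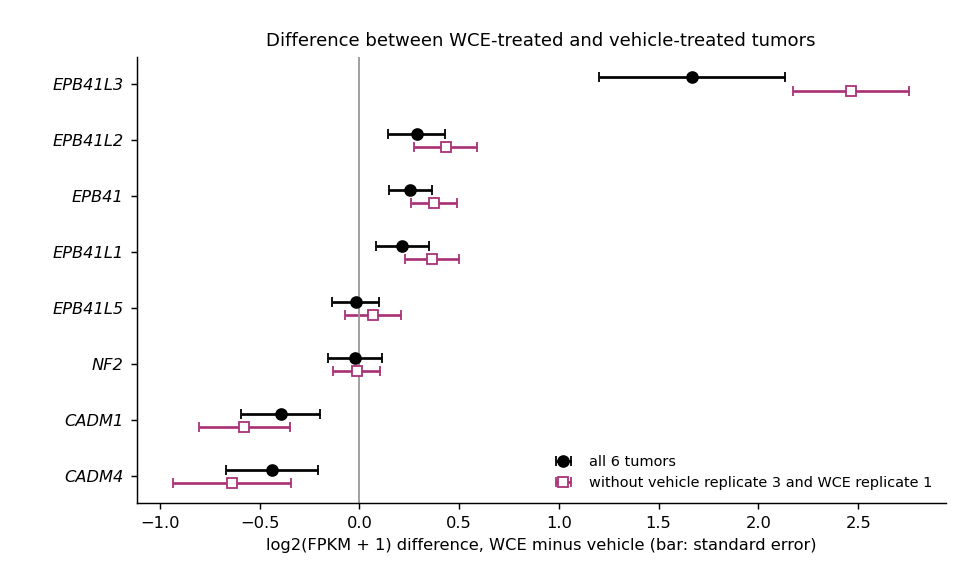
Difference in log2(FPKM + 1) between WCE-treated and vehicle-treated tumors (x axis) for each gene (y axis), with its standard error, for all 6 tumors (black) and for the 4 tumors other than vehicle replicate 3 and WCE replicate 1 (open squares). EPB41L3 stood at 1.67 and 2.46, and the other 7 genes lay between −0.44 and 0.29 over all 6 tumors.

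Over all 8 genes, 4 had a positive and 4 a negative difference, and the median was 0.098, against −0.0063 over all 13287 entries. All 8 passed the filter of a mean of 0.5 FPKM, with CADM1 at 0.642 the nearest to it. Groups did not overlap in 2 of the 8 genes, EPB41L3 and EPB41, both higher under WCE, and in 6.37% of all entries in that direction. A lower non-overlapping group was seen in 0 of the 8 and in 6.4% of all entries. The comparison that chose EPB41L3 is the one counted, so these counts carry no weight for the group as such.

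The order of levels within a tumor did not enter the choice of genes, but shifts of EPB41L3 in rank between the groups restate the difference that chose it. Over the 6 tumors the mean was 21.6 FPKM for NF2, 13.8 for EPB41L2, 9.56 for CADM4, 8.74 for EPB41L1, 7.58 for EPB41, 6.37 for EPB41L3, 5.34 for EPB41L5 and 0.642 for CADM1. NF2 was first and CADM1 last in each of the 6 tumors, and their ranges did not touch those of their neighbours. All other neighbours in this order had overlapping ranges, although EPB41L1 was above EPB41 in 6 of 6 tumors. EPB41L3 stood at rank 7 of 8 in the 3 vehicle-treated tumors and in WCE replicate 1, and at rank 3 in WCE replicates 2 and 3. CADM4 stood at rank 2 or 3 in the former 4 tumors and at rank 6 in the latter 2.

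Summed over the 5 EPB41 genes, the level was 32.4, 33.2 and 38.8 FPKM under vehicle and 37.8, 61.2 and 47.7 FPKM under WCE. EPB41L3 made up 5.36%, 4.11% and 9.80% of this sum in the vehicle-treated tumors and 10.8%, 29.0% and 20.0% in the WCE-treated tumors. The other 4 genes together had 30.7, 31.8 and 35.0 FPKM under vehicle and 33.7, 43.4 and 38.2 FPKM under WCE. The ratio of EPB41L3 to CADM4 was 0.109, 0.163 and 0.398 under vehicle and 0.439, 2.72 and 1.23 under WCE, so that EPB41L3 exceeded CADM4 in WCE replicates 2 and 3 and in none of the other 4 tumors. These shares and ratios also restate the difference by which EPB41L3 was chosen. CADM2 and CADM3, the other adhesion molecules of that family, had means under the filter.

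The entries most like EPB41L3 were found by the root mean square difference of log2(FPKM + 1) values, each centred on its own mean over the 6 tumors. In order they were CAMK2B (0.36), SDK1 (0.36), NTS (0.39), BTBD11 (0.46) and LOC146336 (0.47), a measure in which the identical entry would have 0. CAMK2B, a calcium-dependent kinase subunit best known from brain, had 3.11, 2.20 and 3.29 FPKM under vehicle and 3.04, 14.3 and 11.2 FPKM under WCE. SDK1, an immunoglobulin-like adhesion molecule, had 0.158, 0.395 and 0.739 FPKM under vehicle and 0.641, 3.83 and 2.95 FPKM under WCE. NTS, which encodes the peptide neurotensin, had 1.11, 0.891 and 1.92 FPKM under vehicle and 2.15, 8.04 and 2.80 FPKM under WCE. In each of the 5 the highest tumor was WCE replicate 2 and the next WCE replicate 3, an order largely built in by their choice for likeness to EPB41L3. In CAMK2B, SDK1 and LOC146336 WCE replicate 1 lay within the vehicle range. The locus of LOC146336 is shared with another entry. By the same measure the nearest of the other 7 members was EPB41L2 at 0.86, rank 646 of 13286 entries, and the farthest was CADM4 at 1.32, rank 12851.

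**Figure D3:**
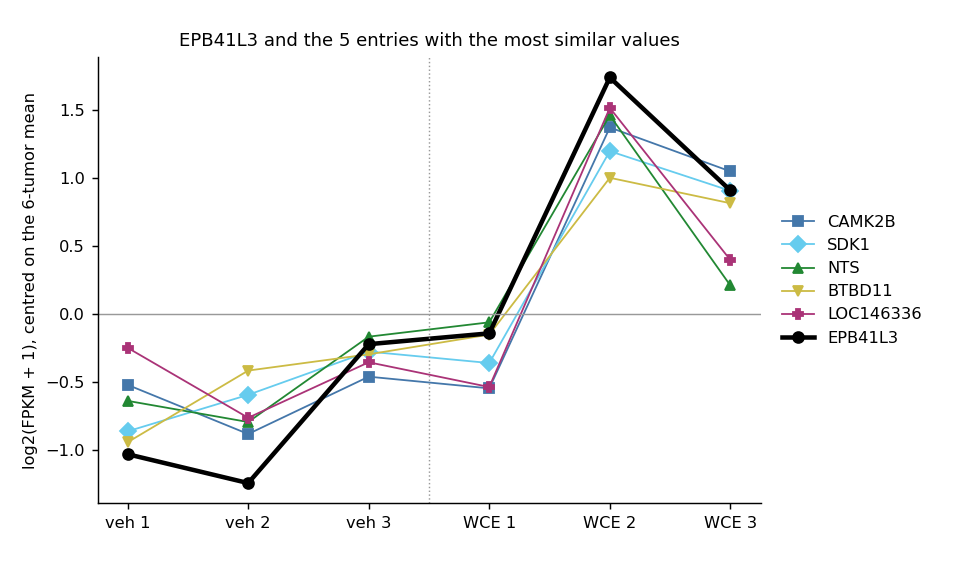
Values of log2(FPKM + 1) in each tumor (x axis), centred on the mean of the 6 tumors (y axis), for EPB41L3 (thick black line) and the 5 entries nearest to it. All 6 lines were highest in WCE replicate 2, followed by WCE replicate 3, which the choice of entries by likeness largely builds in.

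Around EPB41L3 on chromosome 18, 14 entries were listed within 1000000 bases of its locus, and 6 had a mean of at least 0.5 FPKM. Of these, 5 had a positive log2 difference, with a median of 0.24. TMEM200C, which encodes a membrane protein and lies 346198 bases above the locus at chr18:5890184-5892103, had 0.950, 1.21 and 1.58 FPKM under vehicle and 1.71, 3.33 and 2.74 FPKM under WCE. Its groups did not overlap, its order of tumors from the highest down also began with WCE replicates 2 and 3, and its log2 difference of 0.66 had a standard error of 0.20 (limma, unadjusted p = 0.0117, adjusted p = 0.623). Between the 4 other tumors it was 0.96, and its unadjusted p by limma stayed under 0.05 with each of the 6 tumors omitted in turn. It was the 1 entry of the 6 with an unadjusted p under 0.05, against 3.78% of all entries higher under WCE at that threshold. It was also the 1 with higher groups and no overlap, against 6.37% of all entries. Its groups met at the nearly identical libraries. The nearest tested entry was ZFP161, a zinc finger gene 95336 bases below, with 5.93, 7.64 and 6.60 FPKM under vehicle and 7.39, 9.08 and 8.47 FPKM under WCE. Its log2 difference was 0.27 (standard error 0.12, unadjusted p = 0.0639 by limma). LINC00526 and LOC339290, noncoding entries next to each other, had differences of 0.29 and 0.21 within the spread between tumors, L3MBTL4 had 0.058 and FLJ35776 had −0.050. FLJ35776 shares its listed locus with 3 other entries and L3MBTL4 with 1. Of the remaining 8 entries, 4 were listed at 0 in each tumor.

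**Figure D4:**
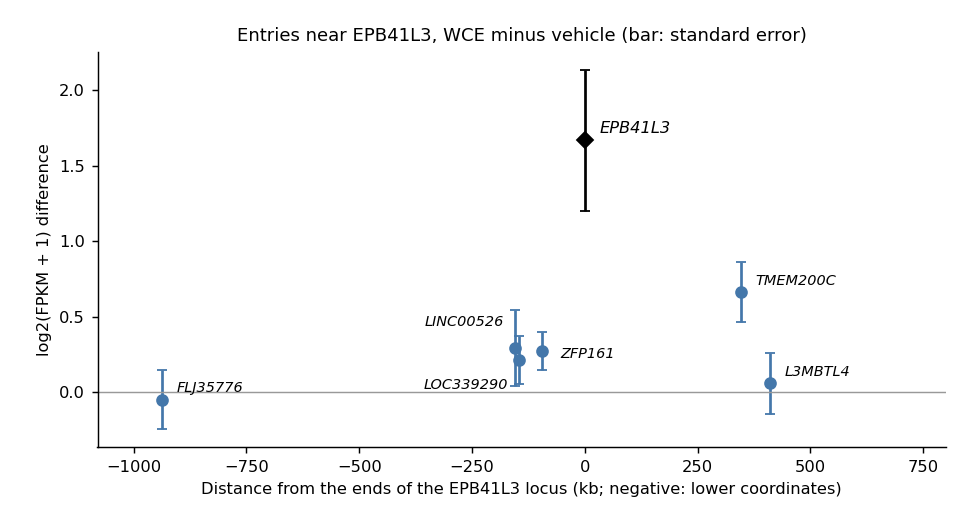
Difference in log2(FPKM + 1) between WCE-treated and vehicle-treated tumors (y axis, with standard error) against the distance from the ends of the EPB41L3 locus in kilobases (x axis). EPB41L3 stood at 1.67, TMEM200C at 0.66, and the other 5 entries between −0.050 and 0.29.

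Of 26 other FERM-domain genes, 25 were tested, and 0 of them came near the difference of EPB41L3, by which that gene was chosen. Their median log2 difference was 0.029. FRMD4A, a scaffold of epithelial polarity, was the 1 gene with an unadjusted p under 0.05, at 2.31, 2.41 and 2.43 FPKM under vehicle and 2.86, 3.86 and 3.37 FPKM under WCE (log2 difference 0.36, standard error 0.12, limma unadjusted p = 0.0204, adjusted p = 0.623). That is 1 of 25 genes, against 3.78% of all entries. The difference of FRMD4A between the 4 other tumors was 0.45, and its unadjusted p by limma was above 0.05 without WCE replicate 2 or 3. Its groups did not overlap, and 4 other genes of the list, EZR, FRMD5, FRMD8 and SNX17, had lower groups with no overlap. That is 1 higher and 4 lower of 25 genes, against 6.37% and 6.4% of all entries. In FRMD4A, EZR and FRMD5 the groups met at the nearly identical libraries. Next by p was TLN1, which encodes the integrin activator talin, with a log2 difference of 0.37 (standard error 0.16, unadjusted p = 0.0569 by limma), and of 0.20 without vehicle replicate 2. The other 4.1-type genes EPB41L4A and EPB41L4B had differences of 0.25 and 0.11. The membrane linkers ezrin, radixin and moesin were abundant, with EZR at 92.1 to 108 FPKM, RDX at 43.7 to 58.0 and MSN at 197 to 262, and with differences of −0.14, −0.095 and 0.20.

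Among genes of the spectrin and actin skeleton that 4.1 proteins hold, SPTAN1 and SPTBN1, the widely expressed spectrin chains, had 15.9 to 26.4 and 19.5 to 24.0 FPKM, each at a locus listed for another entry too, whereas the red cell genes ANK1, EPB42 and GYPC fell below the filter, with EPB42 listed at 0 in each tumor. SPTB, the red cell beta spectrin, passed at 0.608 to 1.05 FPKM, as did DMTN, ADD2 and MPP1, which red cells also use, at means of 6.29, 4.30 and 4.68 FPKM. Of 24 genes, 17 were tested, and 1 was lower under WCE at an unadjusted p under 0.05, against 3.33% of all entries. This was STOM, a membrane scaffold gene, at 20.5, 16.7 and 19.9 FPKM under vehicle and 19.4, 7.00 and 9.29 FPKM under WCE. Its log2 difference was −0.75 (standard error 0.31, limma unadjusted p = 0.0454, adjusted p = 0.623), its groups overlapped through WCE replicate 1, and the value was −0.46 without WCE replicate 2, −1.14 without WCE replicate 1 and −1.10 between the 4 other tumors. Its unadjusted p by limma was under 0.05 without WCE replicate 1 and above it without any other tumor. TPM1, a tropomyosin gene, followed with −0.31 (unadjusted p = 0.0736 by limma). The median of the list was 0.050.

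Among 20 adhesion and binding partners, 17 were tested, with a median log2 difference of −0.12. The 1 gene with an unadjusted p under 0.05 was PRMT3, an arginine methyltransferase known to bind 4.1B, at 23.5, 21.3 and 16.4 FPKM under vehicle and 14.5, 16.8 and 16.3 FPKM under WCE (log2 difference −0.33, standard error 0.14, limma unadjusted p = 0.049, adjusted p = 0.623). That is 1 of 17 genes, against 3.33% of all entries. The unadjusted p of PRMT3 by limma was under 0.05 without vehicle replicate 3 and above it without any other tumor, and the count for the list was 0 with the replicate block, without the mean-variance trend and without the filter. Its difference between the 4 other tumors was −0.42. PRMT5, another methyltransferase that binds 4.1B, had 56.0 to 64.3 FPKM under vehicle and 55.2 to 70.5 FPKM under WCE, with a difference of 0.089. SFN, an epithelial 14-3-3 protein, was second by p, with a difference of −0.34 (unadjusted p = 0.0676 by limma).

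Of 25 Hippo pathway genes, all were tested and 3 had an unadjusted p under 0.05, each lower under WCE, against 3.33% of all entries. The count was 0 when vehicle replicate 2 or either of WCE replicates 2 and 3 was omitted, and 1 without vehicle replicate 1 or without the filter. SAV1, the scaffold of the core kinases, had 25.8, 27.1 and 22.4 FPKM under vehicle and 21.6, 17.9 and 17.7 FPKM under WCE, with no overlap (log2 difference −0.38, standard error 0.12, limma unadjusted p = 0.0136, adjusted p = 0.623). MOB1A, the coactivator of the LATS kinases, had 50.1, 39.1 and 36.4 FPKM under vehicle and 36.1, 24.0 and 30.4 FPKM under WCE, also with no overlap (−0.46, standard error 0.18, unadjusted p = 0.0312 by limma). In both genes the groups met at the nearly identical libraries. Lower groups with no overlap were seen in 3 of the 25 genes, against 6.4% of all entries. ANKRD1, a target of the effector YAP1, had 3.20, 2.99 and 2.41 FPKM under vehicle and 2.49, 0.456 and 0.906 FPKM under WCE (−0.85, standard error 0.30, unadjusted p = 0.0225 by limma). Without WCE replicate 2 the difference of ANKRD1 was −0.58. The differences between the 4 other tumors were −0.55 for SAV1, −0.69 for MOB1A and −1.30 for ANKRD1. The targets CCN1 and CCN2, listed as CYR61 and CTGF, had differences of −0.23 and 0.027, and YAP1 itself of −0.021. The median of the list was −0.034, and 0 of its genes had an adjusted p under 0.05 by limma, as was the case for the other 3 lists, against 1 of 13287 entries, or 0.00753%.

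**Figure D5:**
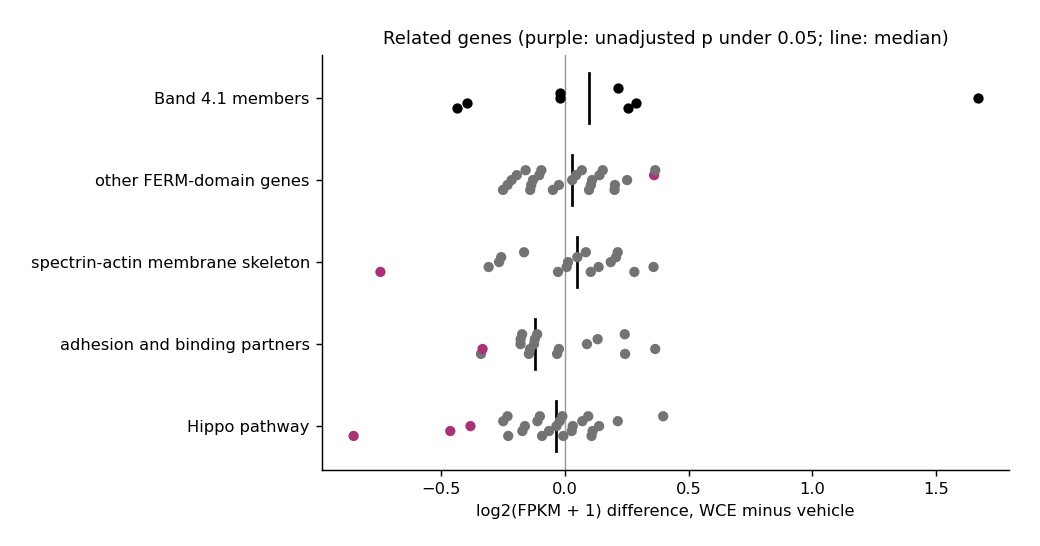
Difference in log2(FPKM + 1) between WCE-treated and vehicle-treated tumors (x axis) for the 8 genes and for the tested genes of 4 related lists (y axis), with the median of each as a line and list genes with an unadjusted p under 0.05 by limma in purple (the 8 genes, in black, are not marked this way). EPB41L3 lay outside the range of every list, which extended from −0.85 to 0.40, but it was chosen by this difference, so its place carries no weight.

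EPB41L3 is also expressed in nerve and other host tissues, so markers of other cell types are given beside it. These entries are human genes, whereas the host is mouse and the handling of mouse reads is not given. Their levels therefore cannot be read as the amount of host cells. By CD31 staining, a protein measure, the study reports that WCE impaired the growth of tumor vessels. PECAM1, the gene for CD31, had a mean of 2.14 FPKM under vehicle and 2.30 FPKM under WCE. Its log2 difference was 0.14 (standard error 0.27, unadjusted p = 0.613 by limma). Of 8 endothelial markers, 4 were tested and 2, KDR and TIE1, were higher under WCE at an unadjusted p under 0.05 by limma, against 3.78% of all entries. Their log2 differences were 1.14 and 0.77, or 1.69 and 1.15 between the 4 other tumors, and both had an unadjusted p above 0.05 by limma without any single tumor other than WCE replicate 1. KDR was at 0.60 without WCE replicate 3 and TIE1 at 0.49 without WCE replicate 2. The summed level of the 8 was 4.097 to 5.69 FPKM under vehicle and 5.34 to 13.1 FPKM under WCE, with the higher values in WCE replicates 2 and 3. The endothelial markers CDH5, VWF, TEK and CLDN5 were at or below 0.0893 FPKM in each tumor, whereas PECAM1 was at 0.860 to 2.95 FPKM. ENG had the highest mean over the 6 tumors, at 1.55 to 3.92 FPKM, although KDR reached 5.12 FPKM in WCE replicate 3 and PECAM1 was above ENG in vehicle replicates 2 and 3 and WCE replicate 1. Of 7 neuronal and Schwann markers, S100B was listed at 0 in each tumor, SOX10 was at most 0.0429 FPKM and SNAP25 at most 0.164, while TUBB3 lay at 39.4 to 44.3 FPKM. The sum of the 7, nearly all of it from TUBB3 alone, was 41.6 to 44.7 FPKM under vehicle and 40.2 to 43.8 FPKM under WCE.

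Fibroblast and stromal markers summed to 55.1 to 62.8 FPKM under vehicle and 46.6 to 76.8 FPKM under WCE. COL1A1 was the most abundant, and LUM was the 1 of 5 tested with an unadjusted p under 0.05 by limma, lower under WCE, against 3.33% of all entries. Its log2 difference was −0.85, or −1.31 between the 4 other tumors and −0.54 without vehicle replicate 1, and its unadjusted p by limma was under 0.05 without vehicle replicate 3 or WCE replicate 1 and above it without any other tumor. PDGFRA had 11.0, 7.87 and 3.97 FPKM under vehicle and 4.02, 32.6 and 20.7 FPKM under WCE, thus also highest in WCE replicates 2 and 3, while PDGFRB and DCN stayed under 0.161 FPKM. Leukocyte and macrophage markers other than CD68, at 25.3 to 43.9 FPKM, had means under 0.5 FPKM, and TYROBP was listed at 0. The sum of all 7, nearly all of it from CD68 alone, was 25.6 to 41.2 FPKM under vehicle and 40.2 to 44.4 FPKM under WCE. The 6 erythroid markers summed to at most 0.352 FPKM in any tumor, with HBA2 listed at 0. Within the epithelial list EPCAM and CDH1, 2 of 7 genes, reached an unadjusted p under 0.05 by limma, against 3.33% of all entries. Both were lower under WCE and lowest in WCE replicates 2 and 3, with CDH1 at 58.6, 61.4 and 57.8 FPKM under vehicle and 56.5, 38.0 and 35.9 FPKM under WCE. Their differences between the 4 other tumors were −1.08 and −0.68. EPCAM had an unadjusted p under 0.05 by limma with each tumor omitted in turn, and CDH1 had one with WCE replicate 1 omitted and with no other single tumor omitted. The summed epithelial list was 1583 to 2008 FPKM under vehicle and 1761 to 1932 FPKM under WCE. For the prostate luminal list it was 21.9 to 31.2 and 31.4 to 32.8 FPKM, with TMPRSS2 the most abundant. The part of these cell types in the EPB41L3 levels was not tested.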

How the data were processed

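RNA of 6 PC-3 xenograft tumors, 3 given vehicle and 3 given WCE, had been sequenced from stranded poly(A) libraries. The authors deposited FPKM values for 24000 gene entries with 1 column per tumor. The submitters' processing notes name TopHat2 2.0.13, Cufflinks and the builds hg19 and mm10, with no role for each. The loci follow human hg19 by that label, since they differ from the GRCh38 reference, and are written from 1. How mouse reads were handled and whether tumors were scaled to each other is not given in the sources used here. FPKM values leave the absolute depth unknown, and intervals for counting error could not be computed.

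Entries with a mean of at least 0.5 FPKM (13287) were compared on log2(FPKM + 1) with limma 3.58.1 in R 4.3.3 (mean-variance trend, two-sided, Benjamini-Hochberg adjustment, threshold 0.05). The smallest exact p for 3 tumors against 3 is 0.1. The p-values measure the spread between these tumors only. The fit was tested on simulated data. Members and lists were chosen with earlier results of these data known. Named genes were the members, the 5 entries nearest to EPB41L3, the genes of each list with an unadjusted p under 0.05 (at most 4, at least the 2 lowest), neighbours within 1000000 bases and the most abundant and absent markers. EPB41L4A, EPB41L4B, EZR, RDX, MSN, SPTAN1, SPTBN1, ANK1, GYPC, SPTB, DMTN, ADD2, MPP1, FRMD5, FRMD8, SNX17, PECAM1, PRMT5, CCN1, CCN2, YAP1, CADM2, CADM3, KDR, TIE1, PDGFRA, LUM, CDH1 and other single markers were named after their values were seen. Symbols were matched exactly, with older names for CCN1, CCN2, PALS1 (listed as MPP5) and DMTN (listed as EPB49) among the genes named. Promoters came from RefSeq on GRCh38.p14. Alternatives were the pseudocount (0.1), the filter (none or 5 FPKM), median-ratio and upper-quartile scaling, no trend, an unmoderated test, a replicate block and tumors left out. Python 3.11.15 with numpy 2.4.6, pandas 2.3.3 and matplotlib 3.10.9 was used for tables and figures.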

Additional observations from a re-analysis of the deposited data

How the results depend on the processing

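EPB41L3 was higher under WCE in each of the 15 alternatives, at a log2 difference of 1.22 (without WCE replicate 2) to 2.16 (without WCE replicate 1) when 1 tumor was left out, and 2.46 with both nearly identical libraries omitted. EPB41, EPB41L1, EPB41L2, CADM1 and CADM4 also kept their sign in each alternative that could be fitted, CADM1 not being tested at a mean of 5 FPKM. EPB41L5 ranged from −0.11 to 0.048 when 1 tumor was left out, and was positive when vehicle replicate 1 (0.0065) or 3 (0.048), WCE replicate 1 (0.0010) or both libraries (0.068) were omitted. NF2 ranged from −0.12 to 0.076, and was positive when vehicle replicate 1 (0.027) or 2 (0.021) or WCE replicate 1 (0.076) was omitted. The median of the 7 members other than EPB41L3 was −0.019 and turned positive with a filter of 5 FPKM (0.098, with 6 genes left), without vehicle replicate 1 (0.027), 2 (0.021) or 3 (0.048), without WCE replicate 1 (0.076) and without both libraries (0.068), ranging from −0.016 to 0.076 when 1 tumor was left out. The number of neighbouring pairs in the order of levels whose ranges did not touch was 2 to 3. Over all entries, 1 had an adjusted and 944 an unadjusted p under 0.05 by limma. No filter gave 0 and 1051, the unmoderated test 0 and 593, and the omission of both libraries 5 and 2449. With 1 tumor left out the counts were 1 to 7 adjusted and 219 to 2033 unadjusted, namely 1771 when vehicle replicate 3 was omitted, 2033 when WCE replicate 1 was, and 219 to 423 for any other tumor. Unadjusted counts of the lists by limma were 1 of 25 FERM-domain genes, 1 of 17 skeleton genes, 1 of 17 partners and 3 of 25 Hippo genes. No filter gave 2, 1, 0 and 1, the unmoderated test 2, 0, 0 and 1, and a filter of 5 FPKM left 0 FERM-domain genes. Without both libraries the counts were 4, 5, 4 and 4, against 18.4% of all entries. No trend and the replicate block each gave 0 partners. With 1 tumor left out the ranges were 0 to 7, 0 to 4, 0 to 4 and 0 to 6, each highest without WCE replicate 1. For all of these the cause was not tested. Tumors with the same number share no stated source, and the correlations of their departures from group averages were −0.241, 0.16 and −0.0931. The replicate block gave 1049 unadjusted calls against 944, and not every tumor correlated best with its own number. WCE replicate 1, with a relative depth of 25%, limits what low entries such as CADM1 can show.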

Other observations

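VIM, a mesenchymal filament gene on the epithelial list, had 275, 411 and 382 FPKM under vehicle and 378, 496 and 546 FPKM under WCE. Its log2 difference was 0.41 (unadjusted p = 0.0673 by limma), or 0.63 between the 4 other tumors and 0.24 without vehicle replicate 1. Of the rest of that list, EPCAM and CDH1 were lower, whereas KRT8, KRT18, KRT19 and CD44 had differences of 0.050, 0.10, −0.014 and −0.032. The median of the epithelial list was −0.014. MPP3, a membrane-associated guanylate kinase gene on the partner list, did not overlap between groups, at 5.22, 5.23 and 5.21 FPKM under vehicle and 5.65, 7.31 and 6.20 FPKM under WCE (log2 difference 0.24, unadjusted p = 0.0694 by limma). On the same list DLG1 and PALS1 (listed as MPP5) had lower groups with no overlap, at differences of −0.18 and −0.12. That is 1 higher and 2 lower of 17 genes, against 6.37% and 6.4% of all entries. MOB1B, the paralog of MOB1A, also had separate groups, at 13.8 to 17.0 FPKM under vehicle and 11.6 to 13.1 FPKM under WCE (log2 difference −0.25, unadjusted p = 0.0601 by limma). Its groups met at the nearly identical libraries. MAP4K4, on the same Hippo list, was higher under WCE at 0.40 (unadjusted p = 0.0626 by limma), or 0.58 between the 4 other tumors. Of that list, 9 genes had a positive and 16 a negative difference. These genes were named after their values were seen.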
